A study of Mus musculus with 49 samples.

Results

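The cytosolic ribosomal protein genes of the mouse encode the proteins of the large (Rpl), small (Rps) and stalk (Rplp) parts of the ribosome that translates nuclear messenger RNAs. Members were the protein-coding rows of an RNA-seq table whose symbol is Rpl, Rps or Rplp followed by a number and at most 1 of the letters a, l or x, with pseudogenes left out. This gave 79 of the 38253 genes in the table, namely 45 of the large subunit, 31 of the small subunit and the 3 P-stalk genes Rplp0, Rplp1 and Rplp2. The rule used names only and no measured value, but it was set with earlier results of these data known.

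The study asked how the normal cell in which an acute myeloid leukaemia starts shapes the disease. It profiled 30 samples of 6 normal bone marrow populations and 19 leukaemias of 4 cellular origins as FPKM (sequenced fragments scaled to transcript length and library size). By the paper each sample came from an individual mouse. Whether different populations were sorted from the same mouse is not stated. The labels give wild-type C57BL/6J mice aged 6 to 12 weeks for every sample, and the methods describe females. The age of leukaemic mice at collection is not given. The normal groups were LT-HSC (long-term haematopoietic stem cells, 5 samples), ST-HSC (short-term stem cells, 5), MPP (multipotent progenitors, 6), CMP (common myeloid progenitors, 5), GMP (granulocyte macrophage progenitors, 5) and MEP (megakaryocyte erythroid progenitors, 4). All were untreated cells sorted by surface markers from lineage-negative marrow. LT-HSC, ST-HSC and MPP were taken as Sca-1+ c-Kit+ cells and separated by CD150 and CD34, and CMP and GMP as Sca-1- c-Kit+ CD34+ cells separated by the Fc gamma receptor. The leukaemias STHSC:MA9 (3 samples), MPP:MA9 (6), CMP:MA9 (4) and GMP:MA9 (6) grew in sublethally irradiated wild-type recipients of the named cell after retroviral transduction with the MLL-AF9 fusion gene and GFP (MA9). The fusion was driven by the viral promoter and not by its own locus, and each leukaemia was collected as GFP+ cells, from spleen according to the methods, whereas GEO lists bone marrow for every sample. Leukaemic recipients were collected when their health declined after transplant, and the paper reports the longest median survival for GMP:MA9. Tissue, irradiation, retrovirus, time after transplant and leukaemia therefore cannot be told apart in any comparison of leukaemia with normal cells. The methods also give a fixed number of sorted cells for leukaemias and ranges for normal cells, lowest for ST-HSC. The part of cell number was not tested.

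A ribosome holds 1 copy of nearly every one of these proteins, and their messenger RNAs are among the most abundant in a growing cell. Most of these messenger RNAs begin with a cytosine followed by a run of pyrimidines, the 5′ terminal oligopyrimidine (TOP) motif, through which mTOR signalling and the protein LARP1 control their translation, while MYC promotes transcription of ribosomal protein and ribosome assembly genes. In blood formation the family is known for Diamond-Blackfan anaemia, caused by loss of 1 allele of RPS19, RPL5, RPL11 and others, and for the low rate of protein synthesis of haematopoietic stem cells. Free Rpl5 and Rpl11 bind Mdm2, the ligase that degrades p53.

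The start of transcription was examined because the TOP motif is defined there. RefSeq start sites (GRCm38.p6) were available for 58 members. A C at the annotated start followed by at least 4 pyrimidines (C or T) was found for 13 of the 58, or 22.4%, against 813 of 27025 genes with a start site, or 3.01%. A C at the first base alone occurred in 32.8% of the members and 18.9% of all genes. The sequences below run from 15 bases before the annotated start to 15 bases from it, and capitals mark the C and the pyrimidines that follow it. The first 6 hold the motif, and the last 2, from members described later, do not.
Rpl15, chr14:18270972-18271001, minus strand: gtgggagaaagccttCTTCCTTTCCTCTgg
Rpl28, chr7:4792950-4792979, plus strand: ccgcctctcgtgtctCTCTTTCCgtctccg
Rps27, chr3:90213634-90213663, minus strand: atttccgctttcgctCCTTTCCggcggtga
Rps21, chr2:180257364-180257393, plus strand: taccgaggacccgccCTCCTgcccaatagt
Rplp2, chr7:141447636-141447665, plus strand: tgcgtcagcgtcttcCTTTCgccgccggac
Rps10, chr17:27635230-27635259, minus strand: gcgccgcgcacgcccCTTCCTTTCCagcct
Rpl12, chr2:32961697-32961726, plus strand: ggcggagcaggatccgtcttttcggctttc
Rps16, chr7:28350674-28350703, plus strand: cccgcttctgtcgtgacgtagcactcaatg
A window without the motif says only that it is not at the base RefSeq annotates.

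Ribosomal protein genes have many processed pseudogenes, and in this table copies elsewhere in the genome held a large part of the family's signal. Of the other rows, 147 had at least 50% of their 31-base stretches in common with a member's transcripts, and these copy rows belonged to 56 of the 79 members. Annotation M1 types 97 of the 147 as pseudogene, 47 as protein coding and 3 as processed transcript. Copy rows held between 29.3% and 35.5% of the summed FPKM of members and copies in each sample. For 19 members the own row carried under 50% of the combined value. A read from an identical stretch cannot be assigned by its sequence, so each member below is given on its own row first, and with its copies where that changes the statement.

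The clearest case was Rps12, a small-subunit protein, which was listed at 0 in all 49 samples. Its gene on mm9 chr10:23504990-23507015 has 6 exon blocks, and 2 intronless copies of 1 block each, Rps12-ps3 on chr19:59396806-59397274 and Gm15887 on chr7:63269303-63269797, have the same coding sequence of 399 bases without a mismatch. Rps12-ps3 averaged 772 FPKM and Gm15887 643 FPKM, and Rps12 with its 3 copy rows averaged 1417 FPKM, rank 43 of the family. The same held for Rpl31, whose own row (chr1:39424696-39428753) averaged 176 FPKM. The copy Gm8759 on chr15:90594677-90595092, again 1 block and without a mismatch over 378 coding bases, averaged 3974 FPKM, 22.5 times the value of the gene. The first 60 coding bases are shown for each gene and its copies.
Rps12: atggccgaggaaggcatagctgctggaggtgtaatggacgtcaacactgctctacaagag
Rps12-ps3: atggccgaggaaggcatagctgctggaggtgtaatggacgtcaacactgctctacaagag
Gm15887: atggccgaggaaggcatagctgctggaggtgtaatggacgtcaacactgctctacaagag
Rpl31: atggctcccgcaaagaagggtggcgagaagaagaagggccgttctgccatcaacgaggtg
Gm8759: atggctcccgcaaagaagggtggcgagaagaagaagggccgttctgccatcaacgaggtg
Adding the copies moved Rpl31 from rank 69 to rank 3 by mean FPKM, Rpl5 from 74 to 16 and Rpl12 from 73 to 44. For these genes the own-row value alone does not give the level of the messenger RNA.

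**Figure D1:**
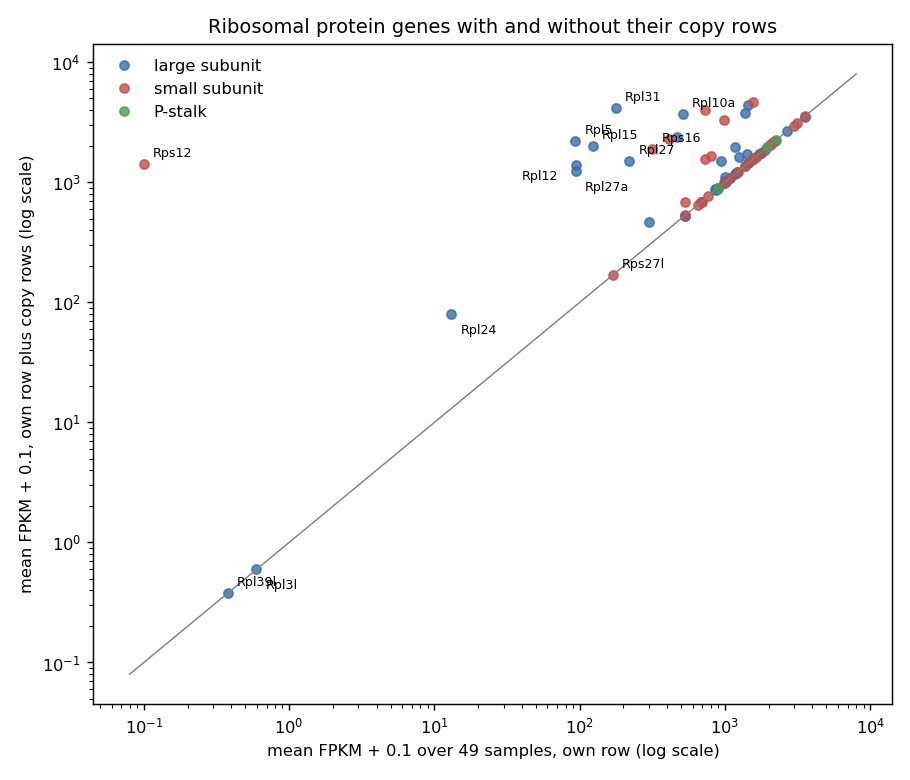
Mean FPKM over the 49 samples of each ribosomal protein gene on its own row (x axis, log scale, 0.1 added) against its own row plus its copy rows (y axis, log scale, 0.1 added), 1 point per gene. Points above the diagonal gain signal from copies, among them Rps12 (0 on its own row, 1417 FPKM with copies), Rpl31, Rpl5, Rpl15 and Rpl12.

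Paralogues that encode distinct proteins could mostly be counted apart. Rps27 and Rps27l, small-subunit zinc finger proteins, are 76.1% identical over 255 coding bases, with 61 mismatches, and have 0 of 225 stretches of 31 bases in common. Rpl39 and its testis-enriched paralogue Rpl39l are 85.3% identical over 156 bases, with 23 mismatches and 8 of 126 stretches in common. Capitals mark the mismatches in bases 4 to 63 of the first pair and 94 to 153 of the second.
Rps27: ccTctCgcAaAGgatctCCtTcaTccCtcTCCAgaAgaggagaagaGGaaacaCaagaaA
Rps27l: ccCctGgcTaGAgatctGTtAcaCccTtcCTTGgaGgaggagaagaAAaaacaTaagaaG
Rpl39: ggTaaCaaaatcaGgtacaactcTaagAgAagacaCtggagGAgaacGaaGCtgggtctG
Rpl39l: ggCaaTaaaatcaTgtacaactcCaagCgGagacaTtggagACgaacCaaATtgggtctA
Tissue-restricted paralogues were low. Rpl10l, a testis-enriched intronless relative of Rpl10, was listed at 0 in all 49 samples. Rpl39l was listed at 0 in 29 samples and Rpl3l, a muscle paralogue of Rpl3, in 15.

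The rest of the family was abundant. On their own rows 71 members averaged at least 100 FPKM. The highest were Rps24, a small-subunit protein mutated in Diamond-Blackfan anaemia, at 3578 FPKM, Rpl32 at 3539 FPKM and Rps4x, the X-linked form of Rps4, at 3131 FPKM. With copies added, Rps24, Rpl32 and Rps4x ranked 7, 8 and 10. The highest were then Rps29 at 4662 FPKM, Rpl10 at 4371 FPKM and Rpl31 at 4151 FPKM. The lowest tested member was Rpl24, between 8.33 and 22.1 FPKM, with a mean of 79.4 FPKM once its copies were added. The deposited table gives no read numbers, so the depth of each sample is unknown. Between 15282 and 17852 genes per sample were above 0. Differences were tested with limma on log2(FPKM + 1). A mean below 1 FPKM excluded a gene from a fit, which removed Rps12, Rpl10l, Rpl39l and Rpl3l and left 75 members in each of the 3 fits. A gene was called at a Benjamini-Hochberg adjusted p below 0.05 over all genes of the fit.

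Together the 79 own rows made up between 3.51% and 16.3% of the summed FPKM of a sample. The mean share was lower in the stem cell groups and in the leukaemia groups than in the normal progenitor groups. In LT-HSC it was 10.1%, 8.76%, 11.7%, 4.74% and 6.96%, and in ST-HSC 9.12%, 8.34%, 10.6%, 7.74% and 8.53%. In MPP the lowest share was 11.8%, the median 13.2% and the highest 14.7%, above every stem cell sample. CMP (13.7% ± 2.05, SD, n = 5), GMP (13.3% ± 0.603, n = 5) and MEP (13.7% ± 0.129, n = 4) lay near MPP (13.2% ± 1.18, n = 6).

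The 3 STHSC:MA9 leukaemias had shares of 6.98%, 9.86% and 9.11%. The first lay below the lowest ST-HSC sample at 7.74%, and the others lay within the ST-HSC range. In MPP:MA9 the lowest, median and highest were 7.21%, 9.92% and 11.3%, all below every MPP sample. CMP:MA9 had 9.18%, 10.2%, 10.8% and 11.7%, which overlapped the lowest CMP sample at 10.8%. In GMP:MA9 the lowest share was 3.51%, the median 10.2% and the highest 11.2%, all below the lowest GMP sample at 12.3%. The difference from the matched normal cell was -0.224 percentage points for STHSC:MA9, -3.48 for MPP:MA9, -3.27 for CMP:MA9 and -4.48 for GMP:MA9, and no test was made on this summed share. GMP:MA9 replicate 2 and LT-HSC replicate 4 stood apart at 3.51% and 4.74%, and without the former the GMP:MA9 difference was -3.42 points.

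Mitochondrially encoded genes took between 12.51% and 36.7% of the summed FPKM, with group means of 32.4% in LT-HSC, 29.5% in ST-HSC and 15.9% in MPP:MA9. Without them the family held 12.6% in both LT-HSC and ST-HSC, 16.9% in MPP, 10.5% in STHSC:MA9, 11.6% in MPP:MA9, 12.9% in CMP:MA9 and 11.7% in GMP:MA9. The difference of STHSC:MA9 from ST-HSC then became -2.06 points, so its size depended on that choice. In bulk RNA, less RNA per cell for these genes and fewer cells that express them highly cannot be told apart, and FPKM shows shares of the RNA and not amounts per cell.

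**Figure D2:**
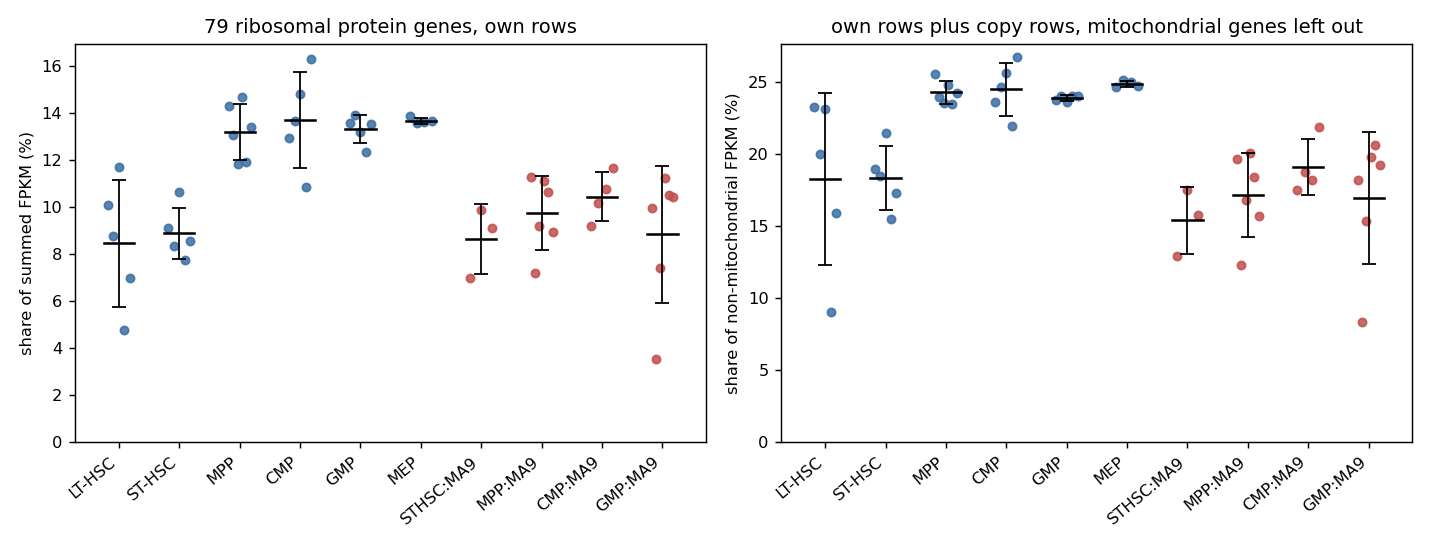
Share of the summed FPKM of each sample in ribosomal protein genes (y axis, percent) for the 10 groups, each point a sample and each bar the mean ± SD. The left panel uses the 79 own rows, where ST-HSC lie between 7.74% and 10.6% and MPP between 11.8% and 14.7%, and the right panel adds the copy rows and leaves mitochondrially encoded genes out of the total.

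Markers of other cells also differed between these groups. The summed FPKM of 7 granulocyte genes, led by S100a8, ran from 13.6 to 862 in MPP and from 19.6 to 245 in CMP, but from 49.4 to 40655 in ST-HSC, from 20.7 to 70280 in LT-HSC and from 993 to 51412 in MPP:MA9. Of the 7, 5 were higher in STHSC:MA9, 7 in MPP:MA9, 6 in CMP:MA9 and 1 in GMP:MA9 than in the matched normal cell. S100a8 exceeded 1000 FPKM in replicates 4 and 5 of both LT-HSC and ST-HSC. In LT-HSC these replicates had the lowest shares, 4.74% and 6.96%. In ST-HSC they had 7.74%, the lowest, and 8.53%. The 5 main counts that involve those groups stayed within 1.5 times of their values without these 4 libraries. Among these counts were the 0 between LT-HSC and ST-HSC and the 74 of 75 of the normal F test, and none of them concerns the share. In GMP the granulocyte sum ran from 1705 to 11352. Summed over 8 erythroid genes the range was 256 to 43079 in ST-HSC, 992 to 79936 in LT-HSC and 119 to 1615 in MPP. It was 3474 to 6418 in MEP and 24.4 to 1008 in MPP:MA9. Over 4 monocyte genes it was 50.7 to 168 in MPP and 1194 to 1924 in MPP:MA9, but 1363 to 2267 in GMP and 911 to 1709 in GMP:MA9. Over 4 primary granule genes it was 16771 to 25332 in GMP and 312 to 1848 in GMP:MA9. Summed T cell markers (Cd3e, Cd3g, Cd4, Cd8a) did not exceed 14.3 FPKM in any sample. The part of these markers in the results below was not tested.

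Among the normal populations, nearly all tested members differed between groups, and the family median was lowest in stem cells and highest in MEP. An F test over the 6 groups called 74 of 75 members, where 78.4% of all genes were called, and the exception was Rpl5. The median over the members of the group mean, relative to each gene's mean over the 10 groups, was -0.25 log2 units in LT-HSC, -0.19 in ST-HSC, 0.40 in MPP, 0.35 in CMP, 0.28 in GMP and 0.57 in MEP.

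The step from ST-HSC to MPP carried most of this. In ST-HSC 58 of the 75 members were lower than in MPP and none was higher, while 14.5% of all genes were lower. The median difference of the members was -0.55 log2 units, beside -0.10 for all genes tested. All 3 P-stalk genes, 30 of 42 large-subunit and 25 of 30 small-subunit genes were lower. By the stricter call with a log2 difference over 1, 5 members remained lower (Rps27, Rps27a, Rps28, Rps20 and Rplp1), where 2.13% of all genes passed. Scaling without mitochondrially encoded genes left 29 lower and 1 higher. The methods give a lower range of sorted cells for ST-HSC than for MPP, and its part in this step was not tested.

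Rplp1, an acidic protein of the stalk that recruits elongation factors, had FPKM of 1195, 1013, 1507, 1350 and 1300 in ST-HSC, against a lowest, median and highest of 2225, 2690.0 and 3063 in MPP. The groups did not overlap, and Rplp1 was 2.13-fold lower in ST-HSC (log2 difference -1.09 ± 0.19 SE, adjusted p = 0.000256, limma). In MEP it stood at 3740, 4032, 4130 and 3993 FPKM, above every other sample but the highest CMP at 4408. Rplp1 had the smallest adjusted p of the family over the 6 normal groups (9.95e-08), followed by its partner Rplp2 (1.00e-07) and Rpl22 (2.77e-07). Rpl22, an RNA-binding protein of the large subunit that is deleted in some T cell leukaemias and has no copy row here, had 520, 522, 836, 728 and 682 FPKM in ST-HSC. In MPP its lowest value was 1109, its median 1209 and its highest 1374, again without overlap (log2 difference -0.92 ± 0.17, adjusted p = 0.000411, limma).

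Rps27 and Rps27a fell furthest from MPP to ST-HSC. Rps27a is made as a fusion of ubiquitin and a small-subunit protein, so its gene (chr11:29445846-29448109) is also a source of ubiquitin. It had 269, 228, 379, 329 and 384 FPKM in ST-HSC and a lowest, median and highest of 615, 731 and 847 in MPP (log2 difference -1.23 ± 0.23, adjusted p = 0.0005, limma). Rps27 (chr3:90016593-90017573) had 603, 373, 752, 746 and 587 FPKM in ST-HSC, all below the MPP values of 1063 to 1634 (log2 difference -1.23 ± 0.19, adjusted p = 4.2e-05, limma). With copies added both remained called, among 59 members.

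LT-HSC and ST-HSC could not be separated by any member. No member was called by limma, none reached an unadjusted p below 0.05, and 1.68% of all genes were higher and 7.51% lower in LT-HSC. Rpl22 had 919, 488, 776, 377 and 577 FPKM in LT-HSC, a spread that covers the ST-HSC values.

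Between the progenitors differences were small and depended on scaling. MPP exceeded CMP for Rps21 (log2 difference 0.54), Rps19 (0.47) and Rpl39 (0.46), 3 members where 7.41% of all genes were higher, and no call remained with the scaling without mitochondrially encoded genes. Between CMP and GMP the median over all genes was 0.20, and that over the members 0.06. In CMP 9 members were higher, where 27.1% of all genes were, and 2 were lower (Rps7 at -0.53 and Rps27l at -0.48), where 9.61% were. With median-ratio scaling none was higher and 15 were lower, so no direction holds for this pair. The calls against MEP were mostly towards higher levels in MEP. CMP was below MEP for 13 members, beside 8.55% of all genes, among them Rps21 (-0.73) and Rplp0 (-0.63), with a member median of -0.24 beside 0.14 over all genes. That count was 4 without mitochondrially encoded genes, 34 with median-ratio scaling and 6 to 22 when 1 sample was left out, and 8 of the 9 samples each moved it by over 1.5 times. GMP was below MEP for 32 members, beside 25% of all genes, among them Rps27a (-1.06) and Rpl35 (-0.94), and above it only for Rps3a (0.64), beside 21.7%. The split of the last pair became 3 higher and 17 lower without mitochondrially encoded genes.

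Many ribosomal protein genes were lower in the leukaemias than in their normal cell, and none of the 75 tested was higher in any of the 4 groups. The ST-HSC and MPP samples of the preceding comparison serve here again as controls. The members lower were 6 of 75 in STHSC:MA9 against ST-HSC, 52 in MPP:MA9 against MPP, 32 in CMP:MA9 against CMP and 71 in GMP:MA9 against GMP. The corresponding shares of all 12600 genes that were lower were 24.6%, 34.8%, 36% and 28.7%, and the shares that were higher 23.8%, 27.7%, 23.9% and 29.7%. Read against these, the members' share was above the background in MPP:MA9 and GMP:MA9, near it in CMP:MA9 and below it in STHSC:MA9. Median differences were -0.13, -0.64, -0.46 and -0.79 log2 units, beside -0.04, -0.09, -0.16 and 0.00 over all genes. Under both other scalings all called members were lower, with 16 called in STHSC:MA9 without mitochondrially encoded genes and 21 in CMP:MA9 with median-ratio scaling. The count was 46 in GMP:MA9 when only GMP:MA9 and GMP were fitted, 19 in CMP:MA9 without CMP:MA9 replicate 1 and 3 in STHSC:MA9 without STHSC:MA9 replicate 1.

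The falls were moderate in size. With a log2 difference over 1 the counts were 0, 7, 5 and 14, where 11.9%, 13.6%, 14.8% and 8.87% of all genes passed. Both subunits took part. In GMP:MA9 41 of 42 large-subunit and 28 of 30 small-subunit genes were lower, with 2 of 3 P-stalk genes, and Rpl5, Rplp0 and Rps29 were among the 4 not called. In MPP:MA9 the counts were 29, 21 and 2, in CMP:MA9 19, 12 and 1, and in STHSC:MA9 6, 0 and 0. Across the 4 origins, 6 members were called in all 4, 23 in 3, 23 in 2, 22 in 1 and 1 (Rps29) in none. Of all 12600 genes, 12% were lower in all 4, 14.2% in 3, 9.86% in 2, 13.7% in 1 and 50.3% in none. With copies added, 4 members were lower in all 4, 25 in 3, 24 in 2, 21 in 1 and 2 in none. Rps29, whose own row held 33.5% of the combined value, was called in GMP:MA9 with copies added.

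**Figure D3:**
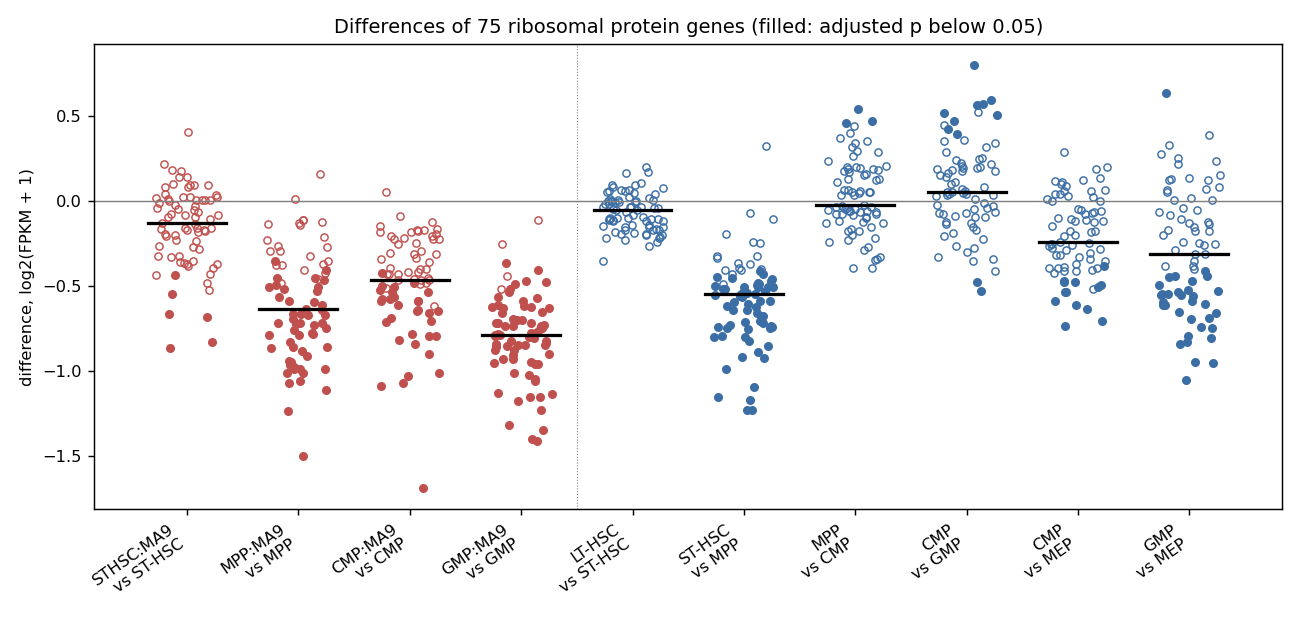
Difference in log2(FPKM + 1) of each of the 75 tested members (points, filled where the adjusted p is below 0.05, with black bars at the medians) for each comparison on the x axis, leukaemias against normal cells to the left of the dotted line. Filled points lie below 0 in all 4 leukaemia comparisons, with 6, 52, 32 and 71 called, and 58 filled points lie below 0 for ST-HSC against MPP.

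**Figure D4:**
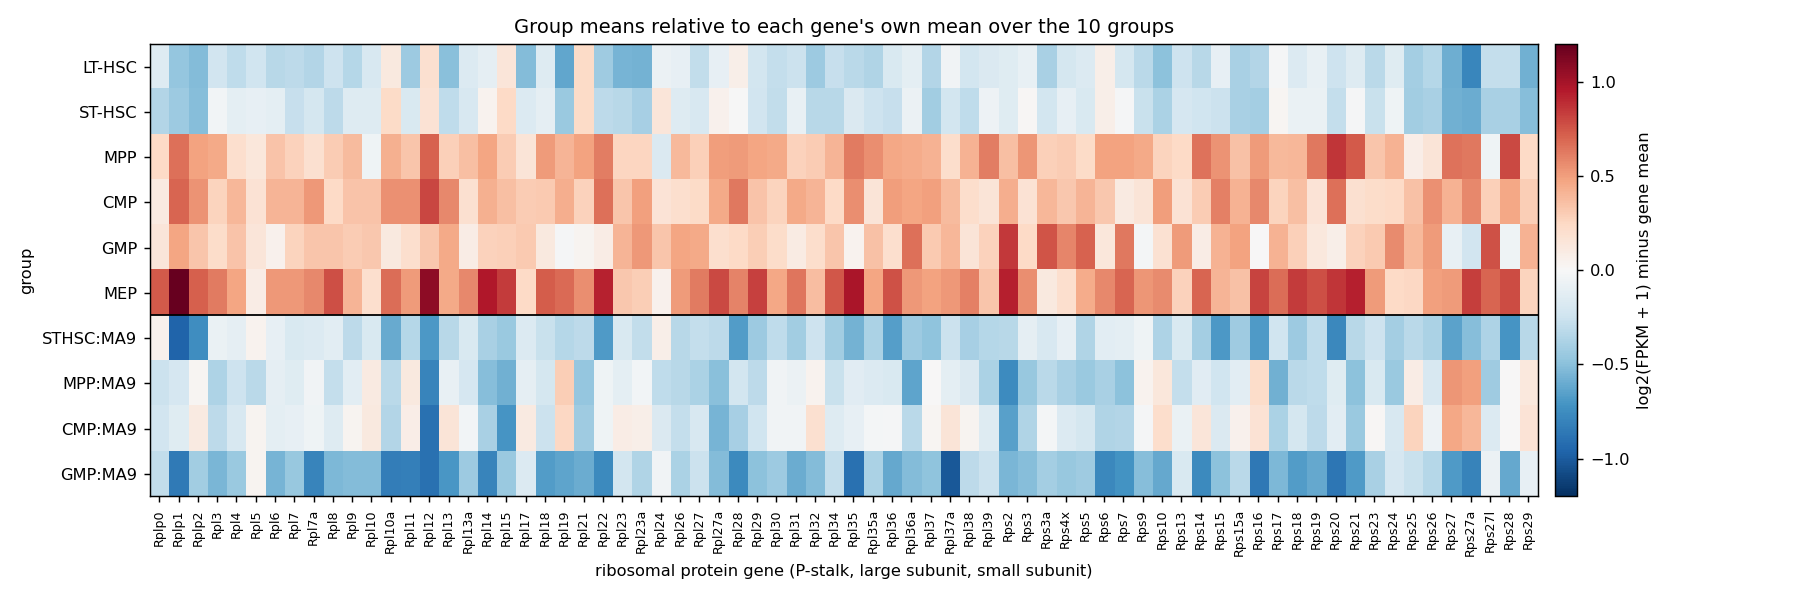
Group means of members (columns) in the 10 groups (rows) as log2(FPKM + 1) minus the mean of that gene over the groups. Most columns are low in the LT-HSC, ST-HSC and leukaemia rows and high in MPP, CMP, GMP and MEP, with GMP:MA9 the lowest by median (-0.52) and MEP the highest (0.57).

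The 6 members lower in all 4 leukaemias were all of the large subunit and included Rpl12, Rpl10a, Rpl15, Rpl28 and Rpl21. For most of these named genes the own row held a small part of the combined value with copies. It was 6.11% for Rpl15, 13.96% for Rpl10a and 19.6% for Rpl28, but 62.6% for Rpl21. Rpl12, which sits at the base of the stalk where elongation factors bind (chr2:32817079-32820016), had 103, 104, 111, 63.4 and 88.1 FPKM in ST-HSC and 32.9, 66.9 and 57.3 in STHSC:MA9. These 2 groups overlapped at their edge. In MPP its lowest, median and highest were 121, 136 and 147 FPKM, and in MPP:MA9 26.0, 50.9 and 59.1, far apart. CMP had 149.6, 129, 134, 144 and 158 FPKM and CMP:MA9 30.97, 41.2, 55.9 and 49.8, also without overlap. GMP lay between 96.5 and 107 FPKM, and GMP:MA9 had a lowest of 15.4, a median of 52.3 and a highest of 64.1. The log2 differences were -0.86 ± 0.28 (adjusted p = 0.0110), -1.50 ± 0.22 (4.00e-07), -1.69 ± 0.26 (9.15e-07) and -1.23 ± 0.23 (3.35e-05) by limma, the largest falls of the family in the first 3.

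The Rpl12 row held 6.73% of the combined value of Rpl12 and its copies, chiefly Gm10275 at 1293 FPKM. With copies added the differences were -0.10 in STHSC:MA9, where the adjusted p was 0.786 and the call was lost, -1.06 in MPP:MA9, -0.73 in CMP:MA9 and -0.82 in GMP:MA9, where the calls remained. Rpl15 likewise lost its call in STHSC:MA9 with copies (-0.29, adjusted p = 0.167, limma), so that 4 of the 6 were left there. Rpl10a, next to Rpl12 in rank of fall in STHSC:MA9, kept it. It had 566, 524, 613, 507 and 622 FPKM in ST-HSC and 273, 348 and 336 in STHSC:MA9, a 1.78-fold difference without overlap (-0.83 ± 0.18, adjusted p = 0.000211, limma), and -0.63 with its copy (adjusted p = 0.00494). For the other origins the calls were little moved by copies: 50 of the 52 members in MPP:MA9, 30 of the 32 in CMP:MA9 and 69 of the 71 in GMP:MA9 were called both ways. Rps12, testable only through its copies, was lower in MPP:MA9 (-1.06), CMP:MA9 (-0.64) and GMP:MA9 (-0.82).

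Rps2, a protein of the messenger RNA entry channel, was among the 3 largest falls in MPP:MA9, CMP:MA9 and GMP:MA9. In GMP it had 2530, 2797, 2467, 2364 and 2671 FPKM, and in GMP:MA9 a lowest of 283, a median of 1281 and a highest of 1634. The groups did not overlap (log2 difference -1.40 ± 0.26, adjusted p = 2.94e-05, limma). In MPP:MA9 the difference was -1.11 and in CMP:MA9 -1.09, while STHSC:MA9 had 854, 1254 and 1329 FPKM, within reach of the ST-HSC values of 1153 to 1501. Rps21 fell by 1.24 in MPP:MA9 on the log2 scale, from 870 to 1099 FPKM in MPP to 343 to 509. Rpl37a (-1.41) and Rps7 (-1.35) had the largest falls in GMP:MA9 beside Rps2. Rps7 lay between 1081 and 1141 FPKM in GMP and at a lowest of 149, a median of 525 and a highest of 764 in GMP:MA9.

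One GMP:MA9 library carried part of this. Replicate 2 had the lowest value of the group for Rpl12, Rpl10, Rps27, Rps27a, Rps16, Rplp1, Rps2 and Rps7, and 34.5% of its FPKM was mitochondrially encoded. Without it 57 members were still lower in GMP:MA9, and the median difference over all tested members was -0.54.

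Whether the leukaemia change differed among the 4 origins was tested as an interaction. By limma 6 members passed, where 38% of all genes did, among them Rpl10 (adjusted p = 0.000818), Rpl7a (0.00473), Rpl37a (0.0142), Rps7 (0.0263) and Rps3 (0.0348). This count was unstable. It was 24 without GMP:MA9 replicate 2, 12 without GMP:MA9 replicate 4, 13 without STHSC:MA9 replicate 1 and 3 without STHSC:MA9 replicate 3. The counts of 6, 52, 32 and 71 called members are therefore not shown to differ for most members taken singly.

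Rpl10, a late-joining large-subunit protein that is mutated in some T cell leukaemias (chrX:71516151-71518474), had 2147, 1957, 1554, 1382 and 1941 FPKM in GMP and a lowest, median and highest of 778, 1001 and 1157 in GMP:MA9. It fell by 0.84 on the log2 scale there (SE 0.14, adjusted p = 5.46e-06, limma) without overlap. In MPP its values were 1179 to 1497 FPKM and in MPP:MA9 1265 to 2098, overlapping (0.16 ± 0.14, adjusted p = 0.306, limma). STHSC:MA9 differed by -0.03 and CMP:MA9 by -0.22, neither called. With its 4 copy rows Rpl10 was again called in GMP:MA9 alone of the 4 (-0.72).

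Few members differed among the leukaemias. Over the 4 origins a limma F test called 5 of 75 members, where 13.3% of all genes were called: Rps27a (adjusted p = 0.00136), Rps27 (0.00492), Rps16 (0.00687), Rpl10 (0.0171) and Rpl19 (0.0413). The first 3, all of the small subunit, were high in MPP:MA9 and CMP:MA9 and low in STHSC:MA9 and GMP:MA9. With copies added Rpl10 (adjusted p = 0.326, limma) and Rpl19 (0.0653) were not called, and Rps28 was (0.0109). On own rows STHSC:MA9 was lower than MPP:MA9 for Rps27a, Rps27 and Rps16 only, beside 8.87% of all genes. MPP:MA9 was higher than GMP:MA9 for 8 (with Rpl11, Rpl19, Rpl7a, Rps28 and Rpl10), beside 11.3%, and CMP:MA9 higher than GMP:MA9 for Rps27a only, beside 0.923%. Scaling without mitochondrially encoded genes turned the 8 into 6 higher and 4 lower. With copies added 7 were higher in MPP:MA9, Rpl31 among them, and Rpl10 (0.21) and Rpl11 (0.65) were not called. The remaining pairs had no called member by limma. STHSC:MA9 against CMP:MA9 had 5 members at an unadjusted p below 0.05 (all genes: 0.181% higher, 0.453% lower), STHSC:MA9 against GMP:MA9 had 2 (0.635% and 0.47%), and MPP:MA9 against CMP:MA9 had 0 (0.107% and 0.0495%).

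Rps27a had 295, 372 and 328 FPKM in STHSC:MA9 and 543, 600.1, 616 and 755 in CMP:MA9. MPP:MA9 had a lowest, median and highest of 501, 683 and 834 FPKM, and GMP:MA9 of 129, 318 and 383. Every MPP:MA9 and CMP:MA9 leukaemia thus exceeded every STHSC:MA9 and GMP:MA9 leukaemia. MPP:MA9 was 2.44-fold above GMP:MA9 (log2 difference 1.29 ± 0.21, adjusted p = 0.000588, limma) and 2.01-fold above STHSC:MA9 (adjusted p = 0.0188).

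Rps27 ran in parallel, with 473, 652 and 597 FPKM in STHSC:MA9, 1061, 1410.1, 1071 and 1407 in CMP:MA9, and a median of 1287 in MPP:MA9 and 689 in GMP:MA9. STHSC:MA9 was 2.24-fold below MPP:MA9 (log2 difference -1.16 ± 0.30, adjusted p = 0.0199, limma), and MPP:MA9 2.31-fold above GMP:MA9 (adjusted p = 0.0029). Rps16 (chr7:29135671-29137715) had 164, 216 and 165 FPKM in STHSC:MA9, 218 to 484 in MPP:MA9, 308 to 364 in CMP:MA9 and 71.6 to 213 in GMP:MA9. The same 3 genes were low in ST-HSC beside MPP and low in GMP beside CMP among the normal cells. This was not particular to them. In ST-HSC 58 of the 75 members were lower than in MPP, beside 14.5% of all genes. In CMP 9 members were higher than in GMP, beside 27.1% of all genes. Rps27a had 612, 377, 356, 346 and 374 FPKM in GMP and 542 to 968 in CMP, overlapping through the highest GMP sample, and none of the 3 was called between CMP and GMP with median-ratio scaling.

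These contrasts between leukaemias rested on few samples. The Rps27a call between CMP:MA9 and GMP:MA9 was lost with copies added, or without CMP:MA9 replicate 2 or 4. None of the 3 calls between STHSC:MA9 and MPP:MA9 remained when any 1 of the 3 STHSC:MA9 samples was left out, or with the replicate number as a block. With copies added, Rps27 kept its call between STHSC:MA9 and MPP:MA9 (-1.16, adjusted p = 0.00901, limma) while Rps27a (-0.67, adjusted p = 0.109) and Rps16 (-0.86, adjusted p = 0.0608) did not.

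**Figure D5:**
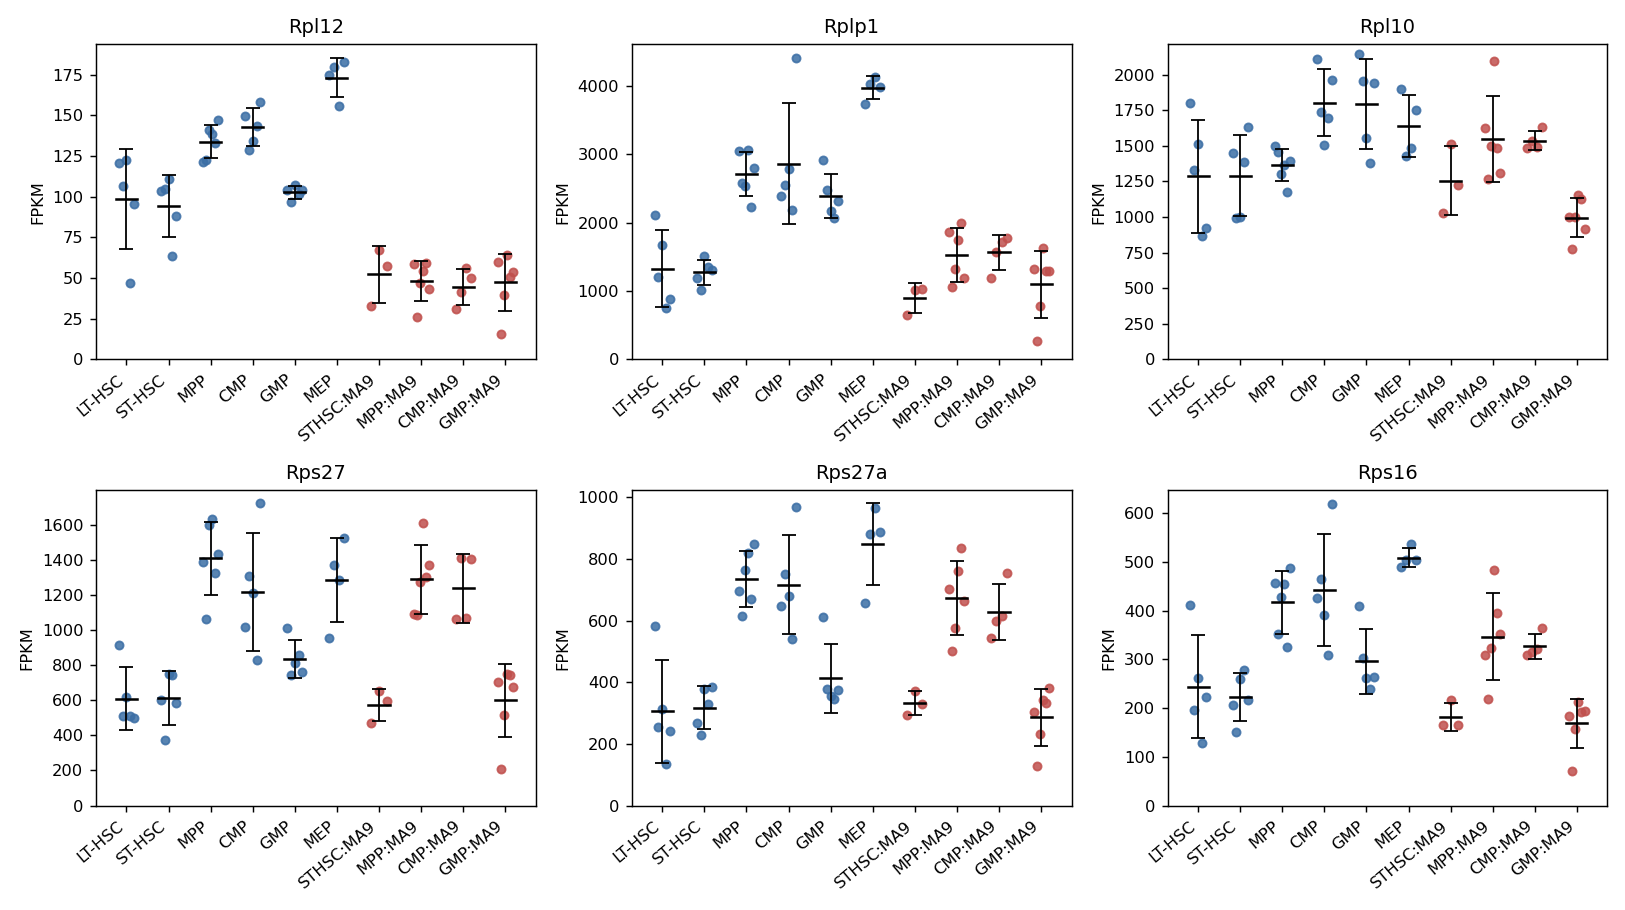
FPKM on the own row (y axis) in every sample (points) of the 10 groups for 6 members, each panel 1 gene, with bars at the mean ± SD. Rpl12 is lower in all leukaemia groups than in the progenitors, while Rps27a separates MPP:MA9 and CMP:MA9 (501 to 834 FPKM) from STHSC:MA9 and GMP:MA9 (129 to 383 FPKM).

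Members with a known part in human ribosome disease were counted apart. Of 11 such genes (Rps19, Rps14, Rps26, Rps10, Rps24, Rpl5, Rpl11, Rpl35a, Rpl22, Rpl10 and Rpl13), 0 were lower in STHSC:MA9, 6 in MPP:MA9, 4 in CMP:MA9 and 10 in GMP:MA9, and 9 were lower in ST-HSC than in MPP. These are 0%, 54.5%, 36.4%, 90.9% and 81.8% of the 11, beside 24.6%, 34.8%, 36%, 28.7% and 14.5% of all genes, so that the share in CMP:MA9 was that of all genes. Rps19, the gene most often mutated in Diamond-Blackfan anaemia, had 1395 to 1775 FPKM in MPP with a median of 1627, and 567 to 1104 in MPP:MA9 with a median of 846. It was 1.92-fold lower there without overlap (-0.94 ± 0.16, adjusted p = 5.86e-06, limma). In STHSC:MA9 it had 692, 939.6 and 877 FPKM and in ST-HSC 859 to 1219, which overlap.

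Rpl5, the 5S RNA and Mdm2 binding protein, had the smallest difference of the tested members in GMP:MA9. Its own row lay between 86.1 and 109 FPKM in GMP and between 51.2 and 125 in GMP:MA9, overlapping throughout (-0.11, adjusted p = 0.585, limma). That row held 4.23% of the combined signal, and with copies Rpl5 was called in GMP:MA9 (-0.68, adjusted p = 0.000996, limma). Over the 10 groups the profiles most like the family median were those of Rpl29 (Pearson r = 0.982), Rplp1 (0.977) and Rpl7 (0.976), and the least like it Rpl24 (0.275), Rpl5 (0.576) and Rps29 (0.698), as a description of group means that share the same libraries.

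Paralogues moved with or apart from their partner. Rpl22l1, the paralogue of Rpl22, was lower in all 4 leukaemias, by -0.72, -0.97, -0.64 and -1.12 (adjusted p = 0.0213, 0.000112, 0.0213 and 4.05e-05, limma). Rpl22 itself was called in MPP:MA9 (-0.66), CMP:MA9 (-0.71) and GMP:MA9 (-0.85) and not in STHSC:MA9 (-0.36). Rps27l, which p53 induces, was called in GMP:MA9 (-0.84, adjusted p = 0.000182, limma) and differed by 0.02, -0.37 and -0.46 in the other 3 groups, not called. With no filter Rpl3l was called higher in all 4 leukaemias (0.75, 0.58, 1.04 and 0.49), at levels of at most 2.71 FPKM.

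Other genes of the ribosome and of its making were taken from lists of known function, and their counts are to be read against the 24.6%, 34.8%, 36% and 28.7% of all genes that were lower in the leukaemias of ST-HSC, MPP, CMP and GMP origin, and the 14.5% lower in ST-HSC than in MPP. Ribosome components that the naming rule misses (7 genes, among them Rpsa, Fau, Gnb2l1, Rpl22l1, Rpl7l1 and Rpl36al) had 1, 4, 3 and 6 of 7 lower in that order (14.3%, 57.1%, 42.9% and 85.7%), and 6 of 7 lower in ST-HSC than in MPP. Of 21 other TOP messenger RNAs, which encode translation factors and related proteins, 5, 13, 14 and 17 were lower (23.8%, 61.9%, 66.7% and 81%) and 3, 0, 1 and 0 higher, so that the share in STHSC:MA9 was near that of all genes. Eef1g, a subunit of elongation factor 1, was lower in all 4 (-0.84, -1.51, -1.67 and -1.53), as was Gas5, a noncoding RNA that hosts small nucleolar RNAs (-1.30, -1.92, -1.87 and -1.39). Tpt1 was higher in STHSC:MA9 (0.52, adjusted p = 0.0105, limma).

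Most of the listed ribosome assembly genes were lower in each leukaemia group, STHSC:MA9 included. Of 35 genes for RNA polymerase I, its factors and nucleolar assembly, 21, 28, 32 and 33 were lower in the same order (60%, 80%, 91.4% and 94.3%) and 1, 0, 1 and 0 higher, with medians of -0.59, -0.87, -1.19 and -0.90. Gnl3, the nucleolar protein nucleostemin, fell by 1.14, 1.54, 1.79 and 1.59 on the log2 scale. Between ST-HSC and MPP the assembly list showed 2 of 35 lower (5.71%, below the 14.5% of all genes), with a median of -0.19, where 58 of 75 members were. Member and assembly genes thus gave different counts in these comparisons (6 of 75 and 21 of 35 in STHSC:MA9), and the difference between the lists was not tested. Mitochondrial ribosomal proteins, which serve the separate ribosome of that organelle, were lower in 12, 36, 51 and 64 of 76 (15.8%, 47.4%, 67.1% and 84.2%) and higher in 2, 2, 2 and 0, and their share in STHSC:MA9 was below that of all genes.

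Among 10 regulators, Myc was lower in every leukaemia group (-1.52, -1.94, -2.33 and -1.33, adjusted p = 6.92e-05, 8.54e-09, 6.42e-09 and 2.71e-05, limma). It averaged 257 ± 24.7 FPKM (SD, n = 6) in MPP and 68.6 ± 20.5 (n = 6) in MPP:MA9. Mdm2 was higher in all 4 (0.45, 0.63, 0.63 and 0.74) and Trp53, the gene for p53, lower (-1.24, -1.06, -1.83 and -0.65). Larp1 was lower in MPP:MA9 (-0.29), CMP:MA9 (-0.83) and GMP:MA9 (-0.74) and not called in STHSC:MA9 (-0.11). In all, 4, 5, 6 and 3 of the 10 regulators were lower (40%, 50%, 60% and 30%) and 1, 2, 1 and 1 higher in the order of origins given above, and the share in GMP:MA9 was near that of all genes.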

How the data were processed

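The authors prepared amplified cDNA from sorted cells, sequenced it and quantified genes with RSEM, and deposited FPKM values with 2 decimals for 38253 Ensembl genes. The submitters' processing notes name RSEM, without a version, and mm9. Of 68 columns, 49 matched a labelled sample and 19 were not used. FPKM keeps no read numbers, so depth is unknown and values were tested on a log scale and not with the count model that the study's methods describe. Groups came from GEO's labels. Values of some single genes are not reported here, though counts include them.

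Symbols and mm9 coordinates came from GENCODE M1 (NCBIM37), which holds 33068 of the 38253 identifiers, and start sites from RefSeq GRCm38.p6. Copy rows were other rows with at least 50% of their 31-base stretches in a member's transcripts. The members and lists were chosen with earlier results of these data known.

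Differences were fitted to log2(FPKM + 1), where folds of low genes are understated, with limma 3.58.1 (R 4.3.3; lmFit, eBayes with trend, two-sided) after leaving out genes whose mean fell below 1 FPKM. The 3 fits held the 39 samples of leukaemias and matched normal cells, the 19 leukaemias, and the 30 normal samples. Adjusted p-values are Benjamini-Hochberg over all genes of a fit, with calls below 0.05. The script was tested on simulated data. Values are mean ± SD, and differences ± SE. Python 3.11.15, numpy 2.4.6, pandas 2.3.3 and matplotlib 3.10.9 were used.

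Genes were named by rule: the 3 largest called rises and falls per leukaemia comparison, the 5 smallest adjusted p of each F test, the 3 highest and 3 lowest levels, members under the filter, paralogue pairs, members with a role in human disease, and the 3 profiles most and least like the family median. Other genes named were chosen after their values were seen. Same-numbered LT-HSC and ST-HSC samples deviated together (r between 0.153 and 0.684 in 5 pairs), and no member was called there with or without the replicate as a block.

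Alternatives were a pseudocount of 0.1, no filter, median-ratio scaling, scaling without mitochondrially encoded genes, the replicate block, a GC content and length correction, added pseudogenes, fits of only the groups compared, a log2 difference over 1, and leaving out each sample. Adding copies by sequence, the GC correction with the block, and leaving out stem cell libraries over 1000 FPKM of S100a8 were chosen after seeing the data.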

Additional observations from a re-analysis of the deposited data

Results flagged for a closer look

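Of 90 groups of samples examined for a value far from the others, 5 held one, where chance gives about 1 in 20. The highest LT-HSC sample of Rps27 was at 915.24 FPKM, and the highest GMP sample of Rps27a at 611.92 FPKM. The highest CMP sample of Rplp1 stood at 4408.02 FPKM and the highest GMP sample of Rpl22 at 1081.27 FPKM. The lowest GMP sample of Rpl5 was at 86.06 FPKM.

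The leukaemia change differed among the 4 origins by the limma interaction test for 6 members. Among them, the adjusted p was 0.000818 for Rpl10, 0.00473 for Rpl7a, 0.0142 for Rpl37a, 0.0263 for Rps7 and 0.0348 for Rps3. Rpl7a differed by 0.04, -0.23, -0.57 and -1.13 log2 units in the leukaemias of ST-HSC, MPP, CMP and GMP origin, and Rps3 by -0.13, -0.99, -0.54 and -0.75.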

How the results depend on the processing

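Counts are members called, of 75 unless the filter or copies change that, and the cause of each change was not tested except where fewer genes or samples enter. Scaling without mitochondrially encoded genes gave 16 for STHSC:MA9 against ST-HSC, 11 for the interaction of origins, 30 between ST-HSC and MPP (1 higher, 29 lower), 0 between MPP and CMP, 7 between CMP and GMP, 4 between CMP and MEP and 20 between GMP and MEP. It moved the share difference to -2.06 points for STHSC:MA9 and -5.29 for MPP:MA9, and adding copies moved that between ST-HSC and MPP to -6.09. Median-ratio scaling gave 21 for CMP:MA9 against CMP, 18 for the interaction, 3 for CMP:MA9 against GMP:MA9, 7 between MPP and CMP, 34 between CMP and MEP, and 0 higher and 15 lower in place of 9 and 2 between CMP and GMP. The GC content and length correction gave 18 for the interaction, 1 for STHSC:MA9 against MPP:MA9, 35 between ST-HSC and MPP, 6 between CMP and GMP and 27 between CMP and MEP.

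With that correction and the replicate block together the counts were 19 for the interaction, 0 for STHSC:MA9 against MPP:MA9, 2 for the F test of leukaemias, 33 between ST-HSC and MPP, 1 between MPP and CMP, 7 between CMP and GMP and 26 between CMP and MEP. The replicate block alone gave 5, 54, 31 and 71 for the 4 leukaemia comparisons, 0 for STHSC:MA9 against MPP:MA9 and 0 between MPP and CMP. The labels link same-numbered samples by the number alone. Outside LT-HSC and ST-HSC their deviations had r of mixed sign, between 0.037 and 0.286 for CMP and GMP and between -0.202 and -0.053 for MPP and CMP. Fitting only the groups compared gave 46 for GMP:MA9 against GMP, 5 for STHSC:MA9 against MPP:MA9, 5 for MPP:MA9 against GMP:MA9, 0 for CMP:MA9 against GMP:MA9, 8 between MPP and CMP, 17 between CMP and GMP, 22 between CMP and MEP and 56 between GMP and MEP. Without the filter the counts were 1 for STHSC:MA9 against CMP:MA9, 1 against GMP:MA9, 0 between MPP and CMP, 4 between CMP and GMP and 7 between CMP and MEP. Added copies gave 0 for CMP:MA9 against GMP:MA9, and named pseudogenes 3 for the F test of leukaemias.

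With a log2 difference over 1 the counts were 0, 7, 5 and 14 for the 4 leukaemia comparisons, 3 for MPP:MA9 against GMP:MA9, 5 between ST-HSC and MPP, 0 between MPP and CMP, 0 between CMP and GMP, 0 between CMP and MEP and 1 between GMP and MEP. Direction turned for Rpl12 between CMP and GMP with copies (-0.14) and for Rpl15 between CMP and MEP with named pseudogenes (0.016) or copies (0.013). Leaving out 1 sample gave 3 to 6 for STHSC:MA9 against ST-HSC (3 without STHSC:MA9 replicate 1), 43 to 54 for MPP:MA9, 19 to 35 for CMP:MA9 (19 without CMP:MA9 replicate 1), 57 to 73 for GMP:MA9, 3 to 24 for the interaction, 4 to 10 for the F test of leukaemias (10 without GMP:MA9 replicate 2, 9 without GMP:MA9 replicate 4), 0 to 4 for STHSC:MA9 against MPP:MA9, 7 to 13 for MPP:MA9 against GMP:MA9 (13 without GMP:MA9 replicate 4), 0 to 3 for CMP:MA9 against GMP:MA9 (0 without CMP:MA9 replicate 2 or 4, 3 without GMP:MA9 replicate 2 or 4), 47 to 62 between ST-HSC and MPP, 0 to 4 between MPP and CMP, 4 to 13 between CMP and GMP, 6 to 22 between CMP and MEP and 29 to 31 between GMP and MEP. Among the progenitors, leaving out any of 8 of 11 samples (MPP and CMP), 8 of 10 (CMP and GMP) or 8 of 9 (CMP and MEP) moved the count by over 1.5 times. The share differences ranged from -0.83 to 0.614, -3.79 to -2.97, -3.99 to -2.62, -4.96 to -3.42 and, between ST-HSC and MPP, -4.77 to -4.04 points. For single genes, 4008 of 4362 repeats kept direction and call, 351 lost the call and 3 reversed. Depth behind each value is unknown.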

Other observations

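Members below the filter differed by group at very low levels. Rpl3l, the muscle paralogue of Rpl3, was above 0 in all 19 leukaemias, between 0.08 and 2.71 FPKM, and listed at 0 in all 5 LT-HSC samples. Rpl39l was at 5.23, 0.36 and 1.43 FPKM in the 3 STHSC:MA9 leukaemias and at most 0.86 FPKM in every other sample. Without the filter Rpl39l was called between STHSC:MA9 and ST-HSC (log2 difference 1.13, adjusted p = 0.000962, limma). Summed FPKM of small-subunit genes stood at 0.774 to 0.933 of that of large-subunit and P-stalk genes together over the 49 samples.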
